A study of Mus musculus with 8 samples.

Results

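The genes described here are 10 genes of hepatic drug metabolism: the cytochrome P450 enzymes Cyp3a11, Cyp3a13, Cyp2b10, Cyp2c29, Cyp2c55 and Cyp2c70, their electron donor Por, the haem enzyme Alas1, and the nuclear receptors Nr1i2 and Nr1i3. They were taken by symbol from the array's probe annotation. Of these, 9 genes had a probe set, 13 probe sets in all, out of 22626 probe sets and 12393 genes on the array. Por had none under its symbol and was not analysed here. All 13 probe sets passed the filter on low values. The probe set of Cyp2c55 and the probe sets of Cyp2b10 that end in s_at were at or near the intensity floor on the vehicle arrays and passed through their T0901317 arrays.

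Liver RNA was hybridised to 8 Affymetrix mouse arrays in 4 groups of 2: human LXRα with T0901317, human LXRα with vehicle, GFP with T0901317, and GFP with vehicle. All mice were LDL receptor-null on a C57B6 background, were 8 months old and had eaten Western diet for 12 weeks. Each had received AAV2.8 at 10 weeks of age, in which the liver-specific promoter of human thyroxine binding globulin drove GFP or human LXRα. T0901317, a synthetic agonist of the liver X receptors, was given at 5 mg/kg, and it or vehicle was injected intraperitoneally for 3 days. GFP with vehicle was therefore no untreated liver: it carried the virus, the receptor deletion and the diet as the other groups did. The labels name a mouse for each array but do not say how the mice were kept or whether RNA was prepared together, so p-values measure the spread between these samples.

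Nr1i2 encodes the pregnane X receptor (PXR) and Nr1i3 the constitutive androstane receptor (CAR). Both are nuclear receptors of hepatocytes that sense drugs, bile acids and other foreign or endogenous compounds, pair with retinoid X receptors and bind repeats of a core hexamer near their target genes. Known targets in mouse liver include Cyp3a11 for PXR and Cyp2b10 for CAR, and the sets of targets overlap. P450 enzymes need haem, whose hepatic synthesis is limited by Alas1, and electrons, which Por passes on. T0901317 is also known to bind PXR.

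The array medians lay between 21.0 and 23.2 intensity units. Partner arrays differed by a median of 0.325 log2 units in either direction for LXRα with T0901317, 0.189 for LXRα with vehicle, 0.22 for GFP with T0901317 and 0.185 for GFP with vehicle. The 3' bias of control transcripts differed between the groups. It was read from the ratio of the 3' to the 5' probe set, which is high where signal of the 5' end is lost. For β-actin this ratio was 2.75 and 36.3 on the LXRα T0901317 arrays, against 2.61 and 3.08 on the LXRα vehicle arrays. In GFP livers the ratio was 7.56 and 11.0 with T0901317, against 2.21 and 2.08 with vehicle. The 3 highest β-actin ratios were thus all on T0901317 arrays. On β-actin, only replicate 1 of LXRα with T0901317 lay in the range of the vehicle arrays. On the other controls it lay outside that range. Its ratio was 2.86 for the bacterial control dap and 1.27 for Gapdh, and the 3' probe set of 18S gave 76.3 intensity units. On the vehicle arrays these were 1.67 to 2.20, 1.06 to 1.16 and 262 to 513. On the other T0901317 arrays the dap ratio was 21.8 with LXRα, and 4.60 and 9.97 with GFP. The summed intensity of 10 tested hepatocyte markers, out of 12 listed, lay between 98492 and 135086 on the 8 arrays, and Alb was between 19677 and 31022.

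None of the 13 probe sets passed an adjusted p of 0.05 in any of 7 comparisons (limma over 15838 probe sets, Benjamini-Hochberg). The comparisons share arrays. Across all probe sets, the share called was 0.0253% for T0901317 in LXRα livers, 0% for T0901317 in GFP livers, 0.00631% for LXRα in vehicle livers and 0% for LXRα in T0901317 livers. It was 0.568% for T0901317 averaged over both transgenes, and 0.00631% each for LXRα averaged over both treatments and for the interaction. At an unadjusted p under 0.05, 3 of the 13 probe sets passed for averaged T0901317, those of Cyp2c55, Cyp2c70 and Nr1i3, against 23.2% of all probe sets. Cyp2c55 and Cyp2c70 also passed for the interaction and for averaged LXRα, against 4.77% and 2.66% of all probe sets. Cyp2c70 and Nr1i3 did so for T0901317 in GFP livers, against 13.2%, and Cyp2c55 alone for T0901317 in LXRα livers, against 13.2%. For LXRα, Cyp2c70 passed in vehicle livers, against 5.15%, and Cyp2c55 in T0901317 livers, against 2.24%. For Cyp2c55 these counts support nothing, since most of its values were at the floor and it passed the filter through the arrays where it was high.

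The groups of 2 arrays often did not overlap, for the members as for the array as a whole. With T0901317 in LXRα livers, 3 of the 13 probe sets were higher on both arrays and 3 were lower, against 20% and 28.4% of all probe sets. With T0901317 in GFP livers, 3 were higher and 1 was lower, against 23.2% and 35.2%. Under vehicle, 3 were higher and 2 were lower with LXRα than with GFP, against 30.9% and 13.5%, and with T0901317 3 were higher and 1 was lower, against 10.6% and 8.72%. Over all T0901317 against all vehicle arrays, 0 were higher and 1 was lower, against 8.2% and 8.44%. Over all LXRα against all GFP arrays it was 0 in either direction, against 0.619% and 0.177%. These counts take values under the floor as equal. Among the 3 higher with T0901317 in LXRα livers were Cyp2c55 and an s_at probe set of Cyp2b10. Cyp2c55 was also among the 3 higher with LXRα under T0901317. For these probe sets the counts support nothing. They were at or near the floor under vehicle and passed the filter through their T0901317 arrays.

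The bases directly before the annotated start of 5 P450 genes are shown because they are the enzymes, members of the Cyp2 and Cyp3 families, whose values the results turn on. The sequences come from RefSeq (GRCm38.p6), which held a window for all 10 genes. They run 5′ to 3′ on the gene's strand, and capitals mark the hexamer AGGTCA, its variant AGTTCA, and the further forms spelled GGGTCA or else GGTTCA, on either strand. They also mark the element TATAAA. Such hexamers are the core to which PXR and CAR pairs bind.
Cyp3a11, chr5:145879855-145880104, minus strand: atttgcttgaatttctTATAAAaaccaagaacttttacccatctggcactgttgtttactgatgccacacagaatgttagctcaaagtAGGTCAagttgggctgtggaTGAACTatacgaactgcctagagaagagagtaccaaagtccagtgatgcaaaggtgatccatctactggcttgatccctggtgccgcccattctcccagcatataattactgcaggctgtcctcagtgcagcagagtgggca
Cyp2c29, chr19:39286835-39287043, plus strand: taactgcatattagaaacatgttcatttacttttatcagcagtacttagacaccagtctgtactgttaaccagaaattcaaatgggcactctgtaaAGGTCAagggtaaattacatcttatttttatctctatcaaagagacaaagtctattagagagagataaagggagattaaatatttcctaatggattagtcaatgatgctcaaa
Cyp2c70, chr19:40187287-40187536, minus strand: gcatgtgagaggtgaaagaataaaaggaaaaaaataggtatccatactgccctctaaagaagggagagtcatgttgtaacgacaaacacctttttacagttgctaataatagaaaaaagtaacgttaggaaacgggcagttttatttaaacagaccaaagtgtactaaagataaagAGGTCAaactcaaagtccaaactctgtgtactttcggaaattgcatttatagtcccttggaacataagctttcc
Cyp2c55, chr19:39006769-39006939, plus strand: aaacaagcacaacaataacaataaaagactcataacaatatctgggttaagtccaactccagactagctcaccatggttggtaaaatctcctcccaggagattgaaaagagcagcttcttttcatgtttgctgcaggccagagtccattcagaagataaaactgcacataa
Cyp2b10, chr7:25897408-25897657, plus strand: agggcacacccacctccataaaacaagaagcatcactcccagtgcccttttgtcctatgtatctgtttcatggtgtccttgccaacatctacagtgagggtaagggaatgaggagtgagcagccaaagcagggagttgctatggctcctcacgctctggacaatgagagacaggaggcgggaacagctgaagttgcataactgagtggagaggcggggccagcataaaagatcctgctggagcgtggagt
Cyp3a11 held 2 hexamers, AGGTCA at position -162 and a reverse AGTTCA at -142 from the start site in the table. It also held TATAAA at -234, and Cyp2c29 and Cyp2c55 held TATAAA at -19 and -29, past the ends of the stretches shown. Cyp2c29 and Cyp2c70 held 1 AGGTCA each, at -154 and -74, and the stretches of Cyp2c55 and Cyp2b10 held no hexamer. In 250 bases before the start, 3 of the 10 genes had a hexamer, against 38.4% of 27025 windows of that length in the table. A pair of these hexamers as a direct repeat with 3, 4 or 5 bases between them, or as an everted repeat with 6 or 8, was found in 0 of the 10 genes and in 0.0296% to 0.0888% of all windows. These letters describe the window only. Only exact hexamers were searched, so imperfect repeats within the window are not counted. A known response element of Cyp2b10 lies farther upstream, outside it.

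The receptor genes came out differently from each other. Nr1i3, which encodes CAR, gave 131 and 98.7 intensity units on the LXRα T0901317 arrays, against 204 and 177 on the LXRα vehicle arrays. It gave 153 and 84.5 on the GFP T0901317 arrays, against 225 and 264 on the GFP vehicle arrays. All 4 T0901317 arrays lay below all 4 vehicle arrays, which was so for 8.44% of all probe sets. The log2 difference for T0901317 was -0.92 averaged over both transgenes (SE 0.23, adjusted p = 0.105), -0.74 in LXRα livers (SE 0.33, adjusted p = 0.391) and -1.10 in GFP livers (SE 0.33, adjusted p = 0.255). The averaged difference corresponds to a level 1.89-fold lower with T0901317. Once the β-actin ratio entered as a covariate it was -0.64 (SE 0.30, adjusted p = 0.261), and the part of the 3' bias in the values of Nr1i3 was not tested. In whole liver RNA, fewer cells of a type and less RNA per cell cannot be told apart. The summed intensity of 6 tested pericentral hepatocyte markers was 12366 and 17393 with LXRα and T0901317, against 22715 and 20173 with LXRα and vehicle. It was 17702 and 19288 with GFP and T0901317, against 17814 and 18542 with GFP and vehicle, and its part in the values of Nr1i3 was not tested. Most of each sum came from 1 marker, the P450 Cyp2e1. It gave 8260 and 10465 with LXRα and T0901317, against 13726 and 12516 with LXRα and vehicle. With GFP it gave 11453 and 10241 under T0901317, against 11893 and 11535 under vehicle.

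Nr1i2, which encodes PXR, gave a dim signal on both of its probe sets. Its brighter probe set gave 38.6 and 28.2 intensity units with LXRα and T0901317, against 28.2 and 28.4 with LXRα and vehicle. It gave 28.0 and 27.0 with GFP and T0901317, against 25.5 and 28.4 with GFP and vehicle. The averaged T0901317 difference was 0.13 on the log2 scale (SE 0.13, adjusted p = 0.557), and the groups overlapped within both transgenes. A dimmer probe set lay between 12.9 and 19.4 on all arrays.

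**Figure D1:**
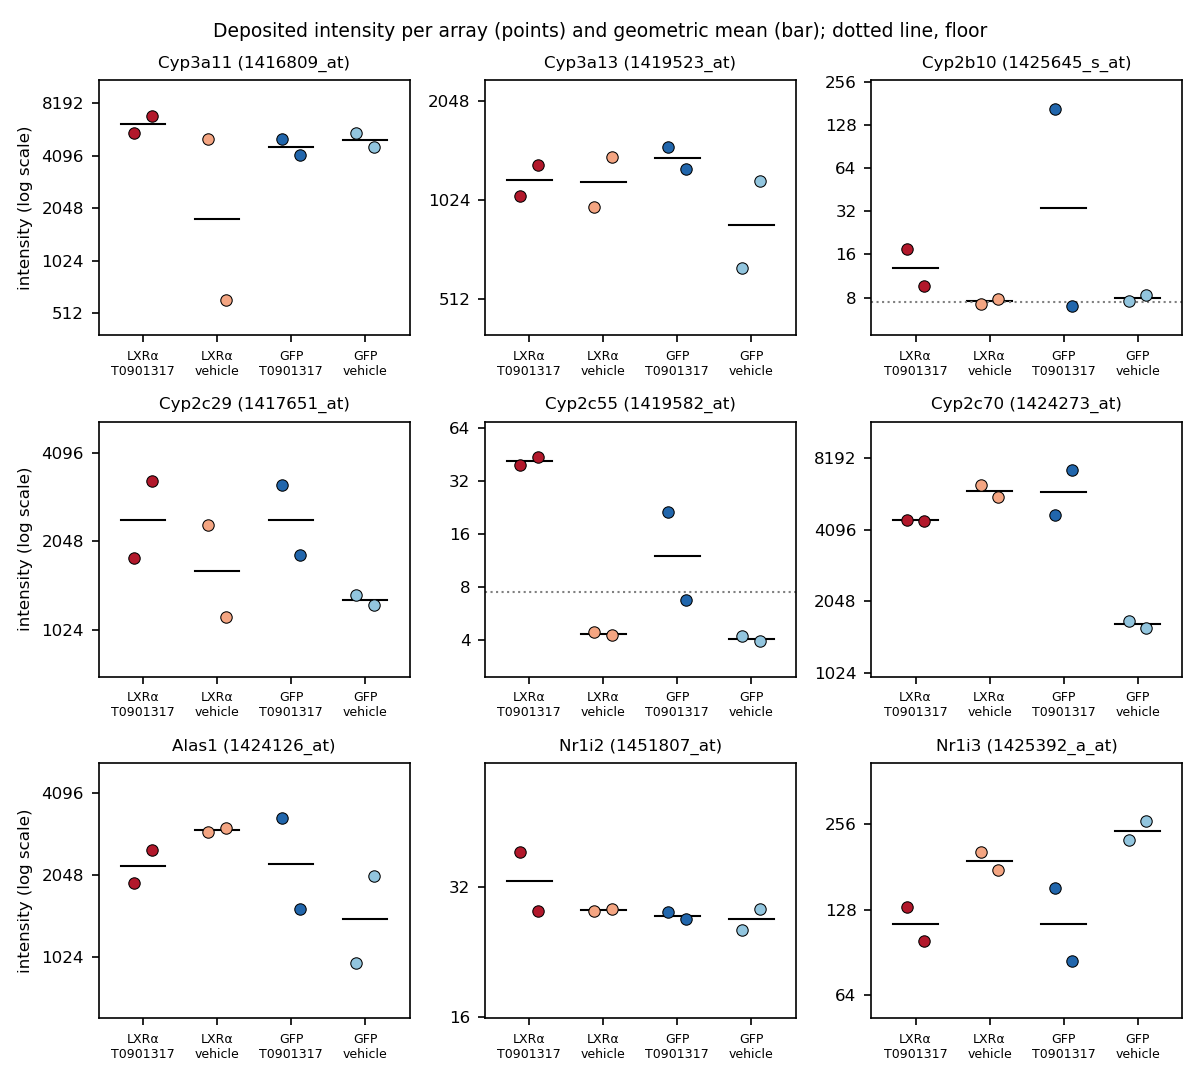
Deposited intensity (log scale) of 1 probe set for each of the 9 measured genes on every array, by group, with points for arrays and a bar for the geometric mean. Nr1i3 is below every vehicle array on all 4 T0901317 arrays, Cyp2c70 is lowest on the GFP vehicle arrays, and single arrays stand apart for Cyp3a11 and Cyp2b10.

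Cyp2c55, a mouse P450 known to hydroxylate arachidonic acid and to respond to PXR and CAR activators, was among the dim probe sets in vehicle livers. Its probe set gave 39.7 and 43.8 intensity units with LXRα and T0901317, against 4.42 and 4.23 with LXRα and vehicle. It gave 21.4 and 6.73 with GFP and T0901317, against 4.19 and 3.93 with GFP and vehicle. Every deposited T0901317 value was above every vehicle value. However, the 4 vehicle arrays and the second GFP T0901317 array were under the floor of 7.50 set for the test, and values at the floor have no order.

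Against that floor, Cyp2c55 was at least 5.56-fold higher with T0901317 in LXRα livers, a log2 difference of 2.48. In GFP livers the difference was 0.76, and it was 0.00 without replicate 1 of GFP with T0901317. With T0901317, LXRα livers were 1.72 above GFP livers on the log2 scale, and the interaction was the same, since both vehicle groups were at the floor. Both values were 0.96 without replicate 2 and 2.48 without replicate 1 of GFP with T0901317. No p-value is given for these differences, because 5 of the 8 values were set to the floor and the vehicle groups have no spread left. The 2 arrays of LXRα with T0901317 had β-actin ratios of 2.75 and 36.3, and the part of the 3' bias in the values of Cyp2c55 was not tested. Stellate cell and matrix markers, 8 of 8 tested, summed to 2796 and 3214 with LXRα and T0901317, against 1055 and 870 with LXRα and vehicle. They summed to 3198 and 2265 with GFP and T0901317, against 3001 and 1720 with GFP and vehicle, and their part in the values of Cyp2c55 was not tested.

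**Figure D2:**
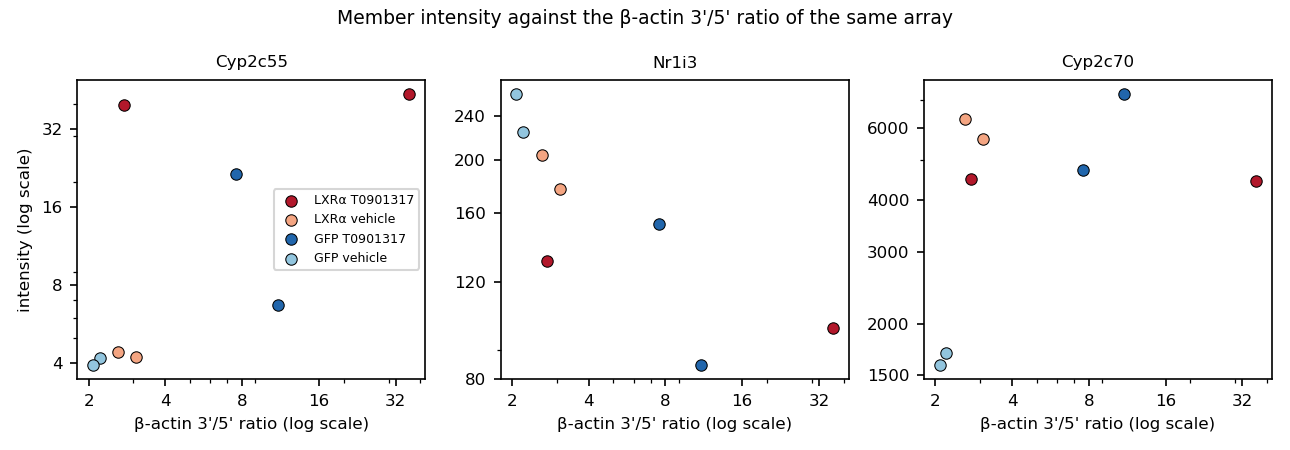
Intensity of Cyp2c55, Nr1i3 and Cyp2c70 against the 3'/5' ratio of β-actin on the same array (both log scales), with a point for each of the 8 arrays coloured by group. The LXRα T0901317 array at a ratio of 2.75 has Cyp2c55 at 39.7 and Nr1i3 at 131. That array lies among the vehicle arrays on this ratio but not on the other controls. Cyp2c70 is low on the GFP vehicle arrays alone.

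Cyp2c70, the mouse enzyme that makes muricholic acids from other bile acids, followed a different order. It gave 4512 and 4463 intensity units with LXRα and T0901317, against 6320 and 5634 with LXRα and vehicle. It gave 4736 and 7267 with GFP and T0901317, against 1701 and 1584 with GFP and vehicle. The GFP vehicle group thus stood below the other 3 groups on both of its arrays, and T0901317 arrays lay above vehicle arrays in GFP livers and below them in LXRα livers.

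In GFP livers, Cyp2c70 was 3.57-fold higher with T0901317 (log2 difference 1.84, SE 0.24, unadjusted p = 0.000144, adjusted p = 0.127). In LXRα livers the T0901317 difference was -0.41 (SE 0.24, adjusted p = 0.464). Under vehicle, LXRα livers were 3.63-fold above GFP livers (log2 difference 1.86, SE 0.24, unadjusted p = 0.000132, adjusted p = 0.299), and with T0901317 the LXRα minus GFP difference was -0.39 (SE 0.24, adjusted p = 1). The interaction was -2.25 (SE 0.35, unadjusted p = 0.000351, adjusted p = 0.694). These comparisons share arrays, and the first, the third and the interaction all rest on the GFP vehicle pair. Leaving out each array in turn gave interactions between -2.56 and -1.94. The β-actin ratios of the vehicle groups were all low, 2.61 and 3.08 with LXRα against 2.21 and 2.08 with GFP. Summed hepatocyte markers were 135086 and 131178 with LXRα and vehicle, against 108390 and 114359 with GFP and vehicle, and their part in the values of Cyp2c70 was not tested.

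Cyp2c29, a P450 that forms epoxides of arachidonic acid and is known as a CAR target, gave 1797 and 3285 intensity units with LXRα and T0901317, against 2339 and 1131 with LXRα and vehicle. It gave 3204 and 1847 with GFP and T0901317, against 1350 and 1247 with GFP and vehicle. The groups overlapped in LXRα livers. In GFP livers both T0901317 arrays lay above both vehicle arrays, as did 23.2% of all probe sets. The T0901317 difference was 0.58 in LXRα livers (SE 0.46, adjusted p = 0.557), 0.91 in GFP livers (SE 0.46, adjusted p = 0.450) and 0.74 averaged (SE 0.33, adjusted p = 0.225). In LXRα livers it was 0.055 without replicate 2 and 1.10 without replicate 1 of the vehicle group. In GFP livers it was 0.51 without replicate 1 and 1.30 without replicate 2 of the T0901317 group.

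Cyp3a11, the main drug-oxidising Cyp3a enzyme of adult mouse liver and the classical PXR target, was bright on 7 of the 8 arrays. It gave 5536 and 6953 intensity units with LXRα and T0901317, against 5091 and 614 with LXRα and vehicle. It gave 5097 and 4158 with GFP and T0901317, against 5498 and 4627 with GFP and vehicle. Replicate 2 of LXRα with vehicle stood apart, with a log2 difference of -3.05 from its partner, and only 8 of 15838 probe sets, 0.0505%, were that low or lower there.

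The T0901317 difference of Cyp3a11 was 1.81 in LXRα livers (SE 0.85, adjusted p = 0.404) and -0.13 in GFP livers (SE 0.85, adjusted p = 0.943). It was 0.84 averaged over both transgenes (SE 0.60, adjusted p = 0.387). Without that array the difference in LXRα livers was 0.29 and the average 0.08. The LXRα minus GFP difference under vehicle was -1.51 (SE 0.85, adjusted p = 0.963), and 0.014 without it. The same array had the lowest sum of 12 macrophage and Kupffer cell markers, 4003 against 10206 on its partner, and 174 probe sets lay more than 1 log2 unit below all other arrays there. More did so, 196, on replicate 2 of LXRα with T0901317. Those markers summed to 11389 and 10419 with LXRα and T0901317, to 9416 and 16289 with GFP and T0901317 and to 14099 and 15430 with GFP and vehicle. The defining markers were detected on it except Cd68, which gave 6.85 and was under the floor, and their part in the value of Cyp3a11 was not tested.

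Cyp3a13, a lesser Cyp3a enzyme, gave 1053 and 1312 intensity units with LXRα and T0901317, against 979 and 1382 with LXRα and vehicle. It gave 1478 and 1275 with GFP and T0901317, against 638 and 1169 with GFP and vehicle. The T0901317 difference was 0.01 in LXRα livers (SE 0.35, adjusted p = 0.986), where the groups overlapped. In GFP livers, where both T0901317 arrays were higher, as for 23.2% of all probe sets, it was 0.67 (SE 0.35, adjusted p = 0.456). It was 0.23 without replicate 1 and 1.11 without replicate 2 of GFP with vehicle. The log2 difference in LXRα livers was -0.052 after quantile normalization and -0.13 once the β-actin ratio entered as a covariate.

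**Figure D3:**
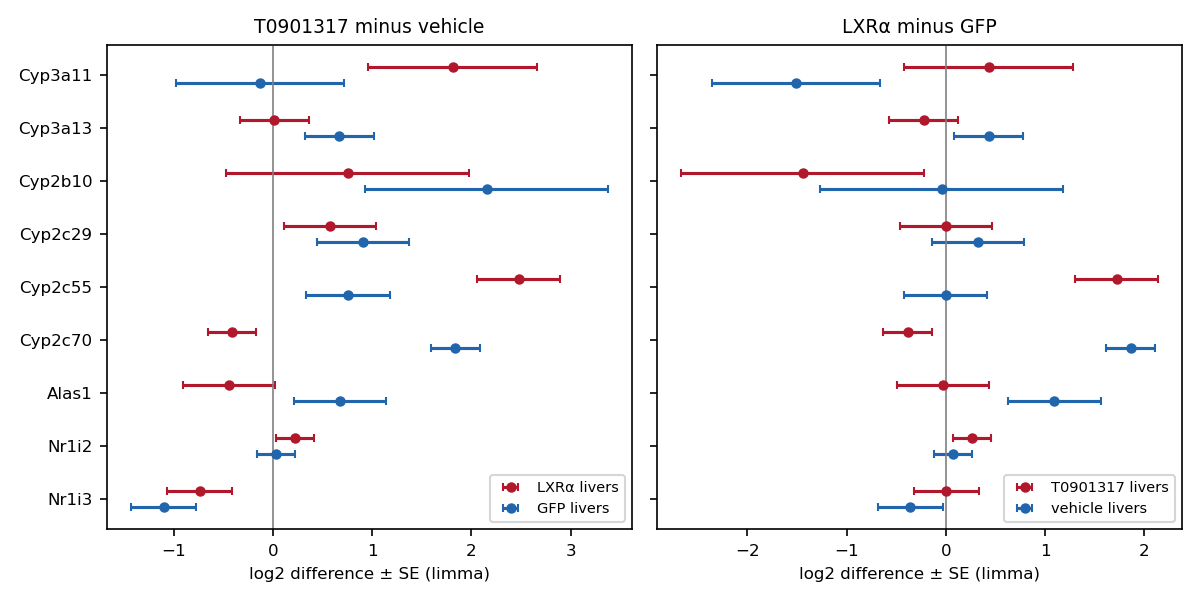
Log2 differences with limma's standard errors for the 9 measured genes, T0901317 minus vehicle within each transgene (left) and LXRα minus GFP within each treatment (right). Cyp2b10 is shown by its s_at probe set of wider range, and its bars and those of Cyp2c55 rest on values at the floor. The T0901317 difference of Cyp2c55 was 2.48 in LXRα livers and that of Cyp2c70 was 1.84 in GFP livers.

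Cyp2b10, a P450 of the phenobarbital response and the classical CAR target, had 3 probe sets, of which 2 end in s_at. The s_at probe set with the wider range gave 17.5 and 9.55 intensity units with LXRα and T0901317, against 7.21 and 7.84 with LXRα and vehicle. It gave 164.8 and 6.97 with GFP and T0901317, against 7.52 and 8.32 with GFP and vehicle. Replicate 1 of GFP with T0901317 stood alone, and the other 7 arrays were near the floor. On that array the probe set lay 3.24 log2 units above every other array, the widest such margin of all 15838 probe sets there. This rank supports nothing, since the probe set passed the filter through that array and its other values were near the floor.

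The other probe sets of Cyp2b10 showed the same array. The other s_at probe set gave 79.9 on it and between 4.90 and 12.3 elsewhere. The remaining one gave 256 on it and between 81.5 and 90.6 elsewhere. For the s_at probe set with the wider range, the T0901317 difference was 0.75 in LXRα livers and 2.15 in GFP livers. No p-value is given, since most values were at or near the floor. For the brightest probe set it was 0.69 in GFP livers (SE 0.48, adjusted p = 0.527), and -0.14 without replicate 1 of GFP with T0901317. Both s_at probe sets fell under the filter when that array was left out. Probe sets ending in s_at can take up RNA of related genes. Cyp2b9, a close relative, gave 52.6 on the same array and 10.9 on its partner. It gave 52.0 on replicate 2 of GFP with vehicle, where the s_at probe sets of Cyp2b10 were at or near the floor. The part of Cyp2b9 RNA in the values of the s_at probe sets was not tested.

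Alas1, the rate-limiting enzyme of haem synthesis in liver, gave 1925 and 2541 intensity units with LXRα and T0901317, against 2966 and 3050 with LXRα and vehicle. It gave 3314 and 1534 with GFP and T0901317, against 976 and 2035 with GFP and vehicle. T0901317 arrays were lower than vehicle arrays in LXRα livers, as for 28.4% of all probe sets, and the groups overlapped in GFP livers. The T0901317 difference was -0.44 in LXRα livers (SE 0.46, adjusted p = 0.645), 0.68 in GFP livers (SE 0.46, adjusted p = 0.525) and 0.12 averaged (SE 0.33, adjusted p = 0.831). Under vehicle, both LXRα arrays lay above both GFP arrays (log2 difference 1.09, SE 0.46, adjusted p = 0.963), as did 30.9% of all probe sets. In GFP livers the T0901317 difference was 0.12 without replicate 1 and 1.23 without replicate 2 of the T0901317 group. A second probe set overlapped in LXRα livers, with 584 and 1057 under T0901317 against 1023 and 999.5 under vehicle. In GFP livers it gave 860 and 502 under T0901317, against 395 and 748 under vehicle.

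In LXRα livers 5 of the 9 measured genes were higher and 4 lower with T0901317, with a median of 0.015, against 47.1% of all tested genes higher. In GFP livers 7 were higher and 2 lower, with a median of 0.68, against 48.2% of all tested genes higher. Averaged over both, 8 had a positive T0901317 difference and 1, Nr1i3, a negative one, with a median of 0.34 on the log2 scale. Over all 9359 tested genes, 49% were higher on that average and the median was -0.01. Cyp2c55 counts as higher in each of these tallies. Its sign supports nothing, since its vehicle values were at the floor and it passed the filter through its T0901317 arrays. The genes were chosen with results of these arrays known. The positive averages of Cyp3a11, Nr1i2 and Cyp2b10 each turned on 1 array, and that of Alas1 changed sign with either of 2 arrays left out. That of Cyp3a11 was 0.077 without replicate 2 of LXRα with vehicle, and that of Nr1i2 was 0.012 without replicate 1 of LXRα with T0901317. Without replicate 1 of GFP with T0901317, that of Alas1 was -0.16 and that of the brightest Cyp2b10 probe set was -0.074. The second probe set of Alas1 had an average of -0.045 with all arrays kept.

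The other genes of the pathway were taken by list, and 0 genes of these lists passed an adjusted p of 0.05 for averaged T0901317 (limma). Unadjusted p under 0.05 was reached on the higher side by 13.5% and on the lower side by 8.08% of all genes, and 8.83% were higher and 7.16% lower on all T0901317 than on all vehicle arrays. Of 46 other Cyp2 and Cyp3 enzymes, 21 were tested, 7 higher and 14 lower, with a median of -0.26, and 0 higher and 2 lower passed unadjusted. Cyp2d26, of the family related to human CYP2D6, gave 3404 and 1980 intensity units with LXRα and T0901317, against 5458 and 6175 with LXRα and vehicle. It gave 3807 and 2326 with GFP and T0901317, against 5683 and 4053 with GFP and vehicle. All T0901317 arrays were lower than all vehicle arrays, with an averaged difference of -0.93 (SE 0.25, adjusted p = 0.119). For Cyp2e1, which oxidises ethanol, it was -0.30 (SE 0.13, adjusted p = 0.221). It was -0.39 for Cyp2d13 (SE 0.16, adjusted p = 0.213) and -0.22 for Cyp3a16 (SE 0.099, adjusted p = 0.225).

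Conjugation and transport genes under PXR or CAR split both ways. Of 45 listed, 32 were tested, 18 higher and 14 lower for averaged T0901317, with a median of 0.26, and 4 higher and 1 lower passed unadjusted. In LXRα livers 21 were higher and 11 lower, with a median of 0.50, against 47.1% of all tested genes higher. In GFP livers 11 were higher and 21 lower, with a median of -0.27, against 48.2% higher. The averaged median was 0.022 without replicate 2 of LXRα with vehicle. Slco1b2, an uptake transporter of the hepatocyte's blood side, had an averaged T0901317 difference of -1.08 (SE 0.16, adjusted p = 0.0502), and all T0901317 arrays lay below all vehicle arrays. In limma it passed with a filter at the 50th percentile (adjusted p = 0.044) and without the intensity trend (adjusted p = 0.0498). It did not pass in the other alternatives that kept all arrays, among them the β-actin covariate and the replicate block. Papss2, which makes the sulphate donor of sulphotransferases, was 1.39 higher (SE 0.24, adjusted p = 0.0687), again on all T0901317 arrays. Abcc2, a bile canalicular export pump, was 0.90 higher (SE 0.22, adjusted p = 0.0992). Gstm3, a glutathione transferase, had an averaged difference of 1.84 (SE 0.52, adjusted p = 0.128), but the direction differed between the transgenes. In LXRα livers its difference was 4.41, with 5336 and 1951 intensity units under T0901317 against 263 and 87.2 under vehicle. In GFP livers it was -0.73, with 1177 and 810 under T0901317 against 2672 and 984 under vehicle.

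More haem genes were lower than higher and more electron transfer genes higher than lower, in short lists, where 49% of all tested genes were higher. Of all genes, 13.5% passed unadjusted on the higher and 8.08% on the lower side. Of 14 haem genes, 13 were tested, 4 higher and 9 lower, with a median of -0.14, and 3 passed unadjusted, all lower. Hmox1, which degrades haem, had a difference of -0.85 (SE 0.31, adjusted p = 0.185). The synthesis enzymes had differences of -0.58 for Urod (SE 0.23, adjusted p = 0.203), -0.39 for Alad (SE 0.15, adjusted p = 0.203) and -0.33 for Uros (SE 0.16, adjusted p = 0.251). Of 10 electron transfer partners, 8 were tested, 6 higher and 2 lower, with a median of 0.14, and 1 passed unadjusted. This was Cyb5r4, a cytochrome b5 reductase, with 0.46 (SE 0.16, adjusted p = 0.177). Pgrmc2, a haem-binding protein, had 0.43 (SE 0.24, adjusted p = 0.285), and the reductase Cyb5r3 had 0.17 (SE 0.16, adjusted p = 0.497). Fdx1, the mitochondrial electron carrier, came from the LXRα contrast with 0.19 averaged over both treatments (SE 0.21, adjusted p = 0.999).

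Among partners and regulators of PXR and CAR, 21 of 28 listed genes were tested, 16 higher and 5 lower, with a median of 0.26, and 1 higher and 3 lower passed unadjusted. Nr0b2, the repressor SHP, was lower on all T0901317 arrays than on all vehicle arrays, with an averaged difference of -1.22 (SE 0.22, adjusted p = 0.069). Ppargc1b, a coactivator, was higher on all T0901317 arrays, with 1.07 (SE 0.33, adjusted p = 0.144). Nr1h3, mouse LXRα, had -0.88 (SE 0.32, adjusted p = 0.179). Foxa3, a hepatocyte transcription factor, had 0.70 for LXRα averaged over both treatments (SE 0.23, adjusted p = 0.999).

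With an array left out, the medians of these lists lay between -0.37 and -0.11 for the other Cyp2 and Cyp3 enzymes and between 0.022 and 0.49 for conjugation and transport. They lay between -0.20 and -0.071 for haem, between 0.075 and 0.30 for electron transfer and between 0.20 and 0.29 for partners and regulators.

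**Figure D4:**
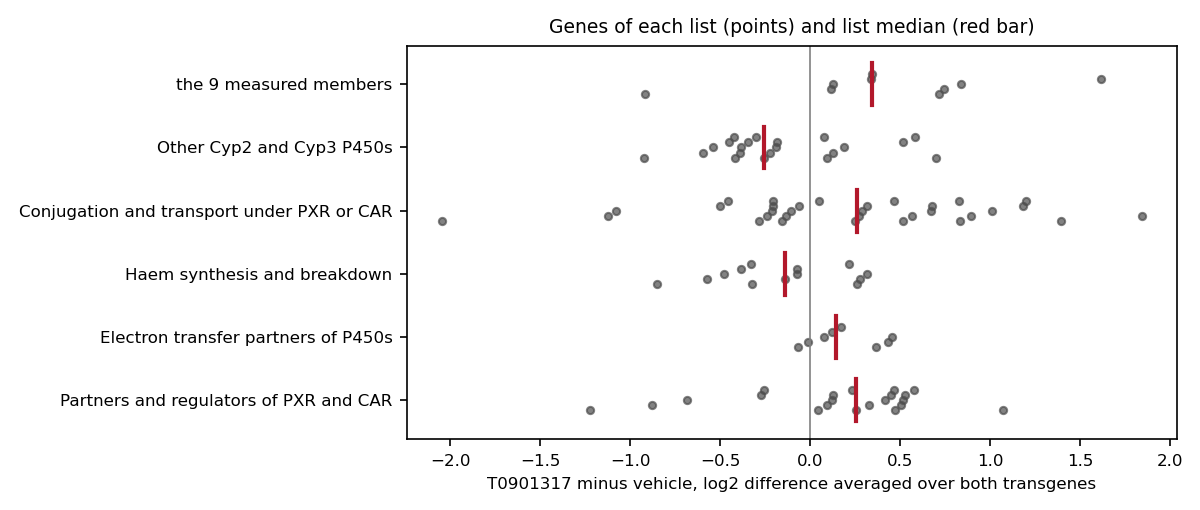
Averaged T0901317 minus vehicle difference (log2) of each tested gene (point) in the 9 measured members and the 5 lists, with the list median as a red bar. The medians are 0.34 for the members, -0.26 for the other Cyp2 and Cyp3 enzymes and 0.26 for the conjugation and transport genes. The members include Cyp2c55, whose vehicle values were at the floor.

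The genes whose pattern over the 8 arrays was nearest to the 3 members of largest SD, with 1 representative probe set per gene, were found by the root mean square difference of centred log2 values. For Cyp2c55 (SD 1.15) they were Rbpms at 0.36, Slc22a5 at 0.46, Dpt at 0.51, Synpo at 0.54 and Fundc2 at 0.56, against a median of 1.11 over all genes. For Cyp3a11 (SD 1.11) they were Emc9 at 0.31, Lpl at 0.35, Lgals3 at 0.36, Clec7a at 0.37 and Iqgap1 at 0.38, against a median of 1.07. For Cyp2c70 (SD 0.83) they were Klb at 0.30, Sod1 at 0.35, Srp19 at 0.36, Lifr at 0.37 and Zfp281 at 0.38, against a median of 0.80. The s_at probe sets of Cyp2b10, which do not represent it, had SDs of 1.54 and 1.20. Genes near Cyp3a11 were picked by a pattern set mostly by replicate 2 of LXRα with vehicle. Those near Cyp2c55 were picked by a pattern with 5 of its 8 values set to the floor, which also shapes its SD.

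**Figure D5:**
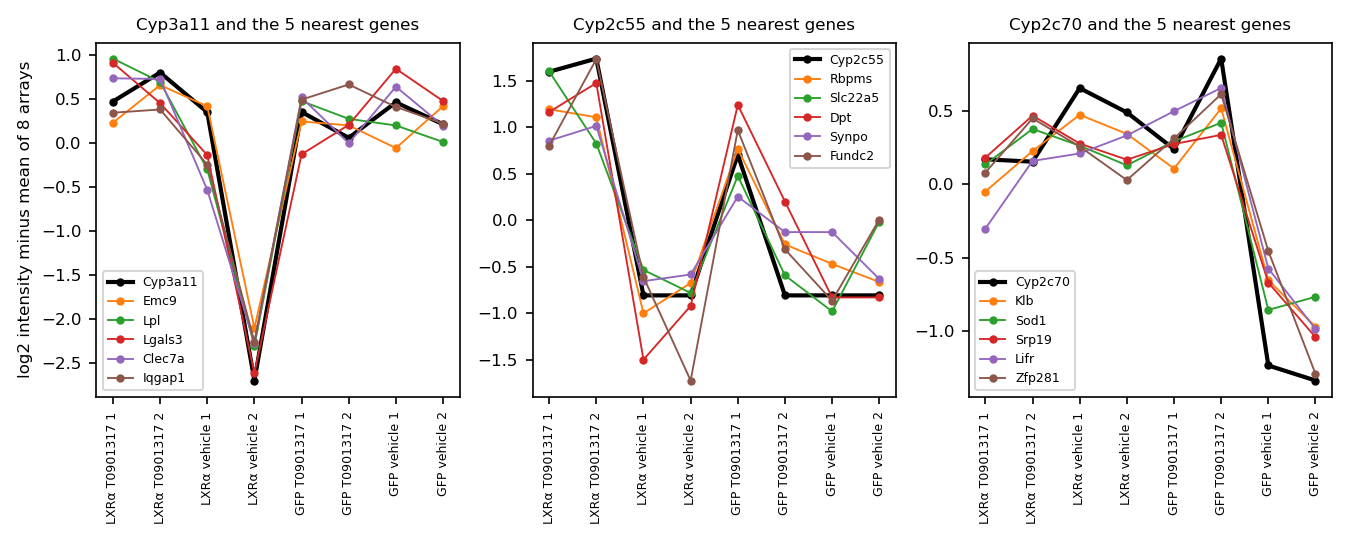
Log2 intensity minus the mean over 8 arrays for Cyp3a11, Cyp2c55 and Cyp2c70 (black) and their 5 nearest genes (coloured), array by array. The genes were picked for closeness to the black line, which for Cyp3a11 is lowest on replicate 2 of LXRα with vehicle and for Cyp2c70 on the GFP vehicle arrays. For Cyp2c55 that line is at the floor on 5 arrays.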

How the data were processed

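Liver RNA of 8 mice was measured on Affymetrix arrays, per the labels, in 4 groups of 2. The authors deposited 1 linear intensity per probe set and array. Which software made these values, and how arrays were scaled, is not given in the sources used here. Of 22690 probe sets, 64 controls were left out. Probe sets were named from the platform annotation, with symbols updated through RefSeq: 20380 had 1 symbol, 691 several and 1555 none. The deposited scaling was kept, because the array medians of log2 values lay within 0.141 of each other.

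Values under 7.50, the 20th percentile, were set to it, and log2 was taken. Probe sets with a mean above the 30th percentile (log2 3.36) were tested, 15838 in all. One limma 3.58.1 fit in R 4.3.3 of 4 group means used eBayes with a trend on intensity and had 4 residual and 2.93 prior degrees of freedom. Benjamini-Hochberg adjustment ran over all tested probe sets within each of 7 comparisons. The interaction is the T0901317 difference in LXRα livers minus that in GFP livers. The number of arrays limits the precision. The steps were tested on simulated data.

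The members and the gene lists were chosen with earlier results of these data known. Every probe set of a member was named. The brightest probe set with 1 symbol represented a gene, one ending in x_at only without another. Up to 4 genes per list with the smallest p for averaged T0901317 or averaged LXRα were named, and the 5 genes nearest to each of the 3 most variable members. The main fit did not pair arrays by replicate number. The correlations of deviations lay between -0.138 and 0.247, the highest between the T0901317 groups, and cannot exclude that arrays of a replicate number were prepared together. Alternatives were quantile normalization, median centring, a lower floor (4.59, the 5th percentile), an offset of 16, no filter on low values or one at the 50th percentile, no trend, a replicate block, the compared groups alone, the log2 β-actin ratio as a covariate, leaving out the 3 arrays of high ratio, and leaving out each array.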

Additional observations from a re-analysis of the deposited data

Results flagged for a closer look

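Cyp2c70 was singled out because T0901317 went with opposite differences in the 2 transgene groups. Both T0901317 arrays lay below both vehicle arrays in LXRα livers and above them in GFP livers. The T0901317 difference was -0.41 in LXRα livers and 1.84 in GFP livers, and the difference between these was -2.25 on the log2 scale (SE 0.35, unadjusted p = 0.000351, adjusted p = 0.694 by limma, n = 2 arrays per group). It failed the adjustment. The adjusted p lay between 0.222 and 1 over the alternatives.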

How the results depend on the processing

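The number of probe sets called depended on the processing. For averaged T0901317 (90 called) it was 32 after quantile normalization, 15 without the filter, 17 with a replicate block and 4 with β-actin's ratio as covariate. It lay between 0, without replicate 2 of LXRα with vehicle, and 1508, without replicate 1 of LXRα with T0901317. For T0901317 in LXRα livers (4) it was 7 after quantile normalization, 2 with an offset, 14 without the filter, 2 without the trend and 0 from the compared groups alone, and 0 to 474 with an array left out. For T0901317 in GFP livers (0) it was 2 without the filter, and 0 to 43 with an array left out. For LXRα in vehicle livers (1) it was 11 without the filter, 0 without the 3 arrays of high ratio and 0 from the compared groups alone, and 1 to 33 with an array left out. For LXRα in T0901317 livers (0) it was 1 without the filter and 1 with the β-actin covariate, and 0 to 6 with an array left out. For the interaction (1) it was 0 after quantile normalization, 0 with the lower floor, 8 without the filter, 2 without the trend, 0 with a replicate block and 2 with the covariate, and 0 to 25 with an array left out. For averaged LXRα (1) it was 0 with the lower floor, 7 without the filter and 2 with the covariate, and 0 to 32 with an array left out.

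Of the members, Cyp2c55 alone passed the threshold in any alternative (4 of 15 for averaged T0901317). With most of its values at the floor, and fewer still above it once an array was left out, those passes support nothing. The replicate block changed no member's call. The Cyp3a13 difference for T0901317 in LXRα livers turned to -0.052 after quantile normalization, -0.13 with the covariate and -0.14 without the 3 arrays of high ratio. With an array left out it lay between -0.23 and 0.26. Other differences that changed sign with an array left out were Cyp3a11 for T0901317 in GFP livers (-0.28 to 0.015) and for LXRα in vehicle livers (-3.04 to 0.014), and the Cyp2b10 probe set not ending in s_at in GFP livers (-0.14 to 1.52) and averaged (-0.074 to 0.75). They were also Alas1 for averaged T0901317 (-0.16 to 0.40) and Fdx1 for averaged LXRα (-0.017 to 0.39). The causes were not tested. Where an array was left out, its partner was taken to vary as the other groups do. Signal near the floor limits Cyp2c55, the s_at probe sets of Cyp2b10 and Nr1i2.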

Other observations

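The genes nearest in pattern to the s_at probe set of Cyp2b10 with the wider range were looked up after its value on replicate 1 of GFP with T0901317 had been seen. They were Slc5a1, a sodium-glucose transporter, at a root mean square log2 difference of 0.88, then Prap1, Trim24, Fbln5 and Ccn2, the last at 0.93, against a median of 1.48 over all genes. Ccn2, a matrix-associated growth factor, gave 612 and 829 intensity units with LXRα and T0901317, against 273 and 154 with LXRα and vehicle. It gave 1369 and 357 with GFP and T0901317, against 224 and 374 with GFP and vehicle.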
